A study of Mus musculus with 16 samples.

Results

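The genes described here carry out antigen presentation by the class I molecules of the major histocompatibility complex (MHC), and they were chosen by name: B2m, H2-K1, H2-D1, Tap1, Tap2, Tapbp, Psmb8, Psmb9 and Psmb10. All 9 had a row among the 27128 genes of the tables, and all 9 passed the filter of a mean of at least 1 CPM (the count of a gene after library totals are made equal), as did 14301 genes in all. The 12 RNA libraries came from 4 experiments on male germline stem cells of the mouse kept in culture, each library a group of its own, so every group had n = 1 and no difference below has a replicate check or a p-value. The cells came from B6;CBA-Tg(Pou5f1-EGFP)2Mnn/J mice at postnatal day 5.5, in which green fluorescent protein (GFP) reports the Pou5f1 (Oct4) promoter, and were sorted as Oct4+/KIT- and grown in StemPro-34 SFM medium with the growth factors GDNF, bFGF and EGF. In the feeder-removal experiment, 1 library came from cells on mouse embryonic fibroblast (MEF) feeders (day 0) and the others from cells 4 and 9 days after transfer from MEF to Matrigel, a basement membrane extract. In the Matrigel density experiment, Matrigel was laid at 0.1 µg/cm2 for a culture termed epithelial-like, and at 10 µg/cm2 for the one termed mesenchymal-like. In the sorting experiment, cells at 10 µg/cm2 were separated by GFP brightness into 3 fractions (GFP-low, GFP-mid, GFP-high). In the inhibitor experiment, cells on MEF received the solvent DMSO or UNC0638, an inhibitor of the histone methyltransferase G9a, at 0.5, 1 or 2 µM for 48 hours. All 12 groups thus shared the reporter strain and the sorted origin, and the labels do not say how many animals or cultures stood behind a library.

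Class I molecules display short peptides from a cell's own proteins to cytotoxic T cells. The proteasome cuts the peptides, with inducible catalytic subunits that can take the place of constitutive ones, a transporter of the endoplasmic reticulum membrane carries them inward, and tapasin holds the transporter next to empty class I molecules, each a heavy chain paired with beta-2 microglobulin. Interferons raise the whole set in most tissues, through interferon regulatory factors (IRF) and the class I transactivator NLRC5, and germ cells of the testis are generally known for low class I levels.

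Of the 9 genes, 7 lie on mouse chromosome 17 of GRCm38.p6, the RefSeq build used here for positions, between chr17:33919478-33929290 (Tapbp) and chr17:35263094-35267497 (H2-D1), a span of 1348 kb. H2-K1 lies at chr17:33996012-34000619. A stretch of 34.3 kb holds 4 of them side by side with no other protein-coding gene inside it, in the order Psmb9 (chr17:34182030-34187330), Tap1 (chr17:34187556-34197225), Psmb8 (chr17:34198195-34201454) and Tap2 (chr17:34204479-34216321). B2m lies apart at chr2:122147687-122153082 and Psmb10 at chr8:105935728-105938392. The 4 upstream sequences below are shown because the genes behind them were all higher in the feeder-removal libraries than in the others: the 200 bases before the start of each heavy chain gene and of B2m, each read along its own gene (for H2-K1, before the more downstream of 2 listed starts), and the interval between the divergent starts of Psmb9 and Tap1, read toward Tap1. They are RefSeq sequences of GRCm38.p6 at chr17:34000334-34000533 (minus strand), chr17:35262894-35263093 (plus strand), chr2:122147487-122147686 (plus strand) and chr17:34187331-34187555 (plus strand). Capitals mark every match, on either strand, to the 6 motifs searched, namely GAAANNGAA and GAANNGAAA (both of the IRF type), GGGANNNNC (NF-kB type), TTCNNNGAA (a palindrome), CCAAT and TGACG (CRE half-site), and overlapping matches run together.
H2-K1: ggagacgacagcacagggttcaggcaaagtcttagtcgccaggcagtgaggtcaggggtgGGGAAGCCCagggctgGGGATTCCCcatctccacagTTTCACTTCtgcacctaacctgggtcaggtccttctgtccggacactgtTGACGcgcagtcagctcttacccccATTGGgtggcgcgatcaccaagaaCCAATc
H2-D1: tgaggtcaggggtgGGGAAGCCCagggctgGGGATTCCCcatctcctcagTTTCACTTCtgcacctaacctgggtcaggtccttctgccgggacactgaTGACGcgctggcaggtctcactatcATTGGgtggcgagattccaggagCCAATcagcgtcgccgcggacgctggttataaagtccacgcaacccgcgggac
B2m: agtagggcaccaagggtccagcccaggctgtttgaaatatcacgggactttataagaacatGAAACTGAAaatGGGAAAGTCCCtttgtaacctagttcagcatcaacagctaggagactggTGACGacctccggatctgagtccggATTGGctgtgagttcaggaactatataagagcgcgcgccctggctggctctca
Psmb9 to Tap1: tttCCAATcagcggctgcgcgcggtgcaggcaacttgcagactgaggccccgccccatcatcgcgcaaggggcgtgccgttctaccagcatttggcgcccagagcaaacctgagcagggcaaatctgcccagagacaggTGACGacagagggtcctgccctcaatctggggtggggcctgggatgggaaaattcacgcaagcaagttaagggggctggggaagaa

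The heavy chain sequences were alike, with 138 identical positions over 154 aligned columns (89.6%), and both held an IRF-type GAANNGAAA match, at -104 in H2-K1 and -150 in H2-D1 from the start. In B2m the form GAAANNGAA matched at -139, with an NF-kB-type match beginning at -127, a CRE half-site at -78 and a CCAAT at -53. The 225 bases between Psmb9 and Tap1 held a CCAAT and a CRE half-site and no match to the other 4 motifs. In windows of 300 bases (250 before and 50 after a start), 1 of the 8 genes with a window matched GAAANNGAA and 2 matched GAANNGAAA, against 8.56% and 7.52% of all 32851 windows. NF-kB-type letters were common, in 5 of the 8 windows and 55.3% of all, CCAAT matched 6 of 8 against 37.4%, TGACG matched 5 of 8 against 20.8%, and TTCNNNGAA matched Psmb8 alone against 8.30%. A match describes letters in a window and is not a binding site.

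Totals ran from 4335185 to 12019651 expected counts per library, so 3 counts, taken as the smallest visible level, stood for 0.238 to 0.724 CPM. Germ cell markers were present throughout, with 20 of 20 above 3 counts in every library and summed levels of 4956 to 7444 CPM. A library is called fibroblast-rich or myeloid-rich here where its summed marker level was at least 3 times the median of the 12. By that rule the mesenchymal-like, DMSO and 0.5 µM libraries were fibroblast-rich, with 20 markers summing to 6046, 3242 and 1088 CPM against 117 to 571 CPM in the others. The sorted libraries were myeloid-rich, with summed levels of 1977 CPM in GFP-low, 1751 CPM in GFP-mid and 240 CPM in GFP-high against 16.2 to 51.2 CPM, and there the myeloid markers Csf1r, Mpeg1 and Tyrobp were at 52.5, 66.7 and 33.0 CPM in GFP-low, while in the day 0 library all 3 had no count. Day 0 was labelled as grown on MEF, yet its fibroblast sum of 277 CPM was close to the 253 and 295 CPM of days 4 and 9. In every library 2 of 10 lymphoid markers were above 3 counts, and their sum stayed at 8.38 to 11.2 CPM. In such bulk samples, fewer cells of a type and less RNA per cell cannot be told apart.

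The largest pattern among the 9 genes lay between experiments. In each gene, all 3 feeder-removal libraries were above all 9 other libraries, while 14.4% of all genes tested (2060 of 14301) showed this ordering, which was chosen for counting after the data were seen. The members too were chosen with earlier results of these data known, so they are not an independent set. The distance between the lowest feeder-removal library and the highest of the others ran from 1.15-fold in H2-K1 to 5.31-fold in Psmb8. When the 12 libraries were put in order by each gene, counting intervals separated between 2 (Tap2) and 8 (Psmb10) of the 11 neighbouring pairs, so most neighbours in the orders of Tap1, Tap2, Psmb8 and Psmb9 did not differ beyond counting error. Together the 9 genes took 0.391% to 0.412% of all TPM, a unit corrected for gene length, in the feeder-removal libraries and 0.0629% to 0.171% elsewhere. Experiment and culture history cannot be told apart in this ordering, and day 0 and DMSO cells, both grown on MEF, stood on opposite sides of it.

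**Figure D1:**
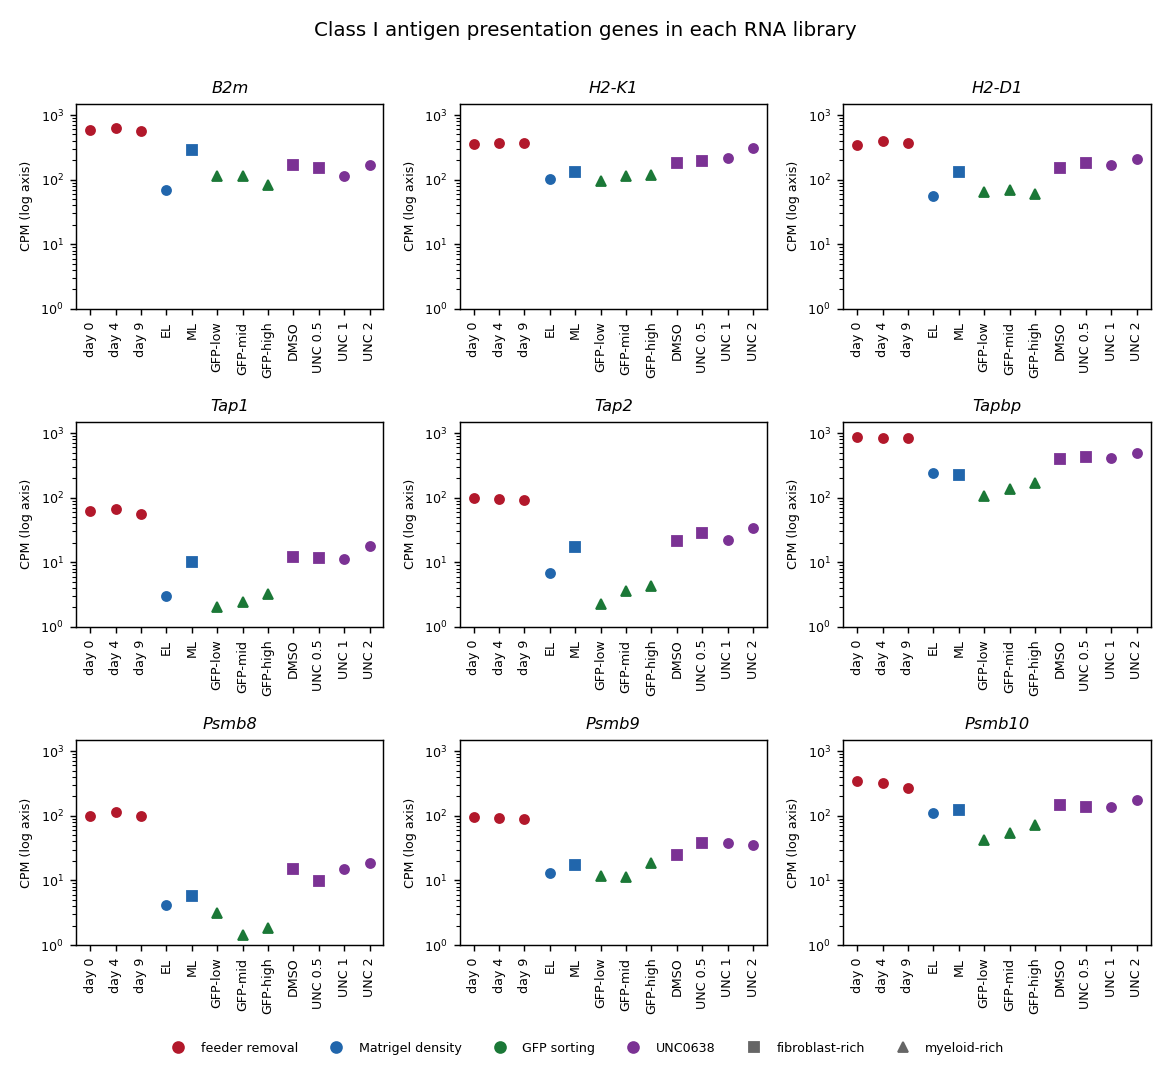
Level of each of the 9 genes (CPM after TMM scaling, log axis, 1 panel per gene) in the 12 RNA libraries, 1 point per library with no error bar because each group had n = 1; colours mark the experiment, squares fibroblast-rich and triangles myeloid-rich libraries, EL and ML stand for epithelial-like and mesenchymal-like, and UNC for UNC0638 with its dose in µM. In every panel the 3 feeder-removal points sit above all others, by a wide distance for Psmb8 (98.5 to 114 CPM against 1.43 to 18.6 CPM) and a small one for H2-K1 (350 to 373 CPM against 96.2 to 304 CPM).

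Beta-2 microglobulin, the light chain that every class I molecule shares, had the highest level per length of the 9 genes in the day 0 library. B2m stood at 1354, 1480 and 1432 TPM at days 0, 4 and 9, at 141 TPM in the epithelial-like and 579 TPM in the mesenchymal-like library, at 267, 278 and 215 TPM from GFP-low to GFP-high, and at 383, 351, 260 and 373 TPM with DMSO and 0.5, 1 and 2 µM UNC0638. The epithelial-like library was lowest and the mesenchymal-like library highest outside feeder removal, and the highest and lowest of all 12 differed 9.23-fold in CPM (95% counting interval 8.21 to 10.4). H2-K1, a classical heavy chain, had the narrowest range of the set, 3.88-fold (3.59 to 4.19). Its levels were 350, 373 and 372 CPM at days 0, 4 and 9, 104 and 133 CPM in the density libraries (epithelial-like first), 96.2, 115 and 118 CPM from GFP-low to GFP-high, and 184, 191, 216 and 304 CPM from DMSO to 2 µM. The other classical heavy chain, H2-D1, ranged 7.18-fold, with 343, 396 and 369 CPM at days 0, 4 and 9, 55.2 and 133 CPM in the density libraries, 63.8, 69.8 and 60.1 CPM in the sorted ones, and 150, 180, 171 and 212 CPM in the inhibitor ones. The heavy chain genes are a family of similar sequences, and the expected counts were fractional in 12 libraries for H2-K1 and 11 for H2-D1, so reads were shared with other genes, which the tables do not name, and their separate values are uncertain. The mice were of mixed B6;CBA background and heavy chain genes are highly polymorphic, and how reads of alleles unlike the reference were assigned cannot be checked from the tables. The expected counts of the 7 other genes were whole in all 12 libraries.

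The peptide transporter is a dimer of TAP1 and TAP2, and its genes had some of the widest ranges. Tap1 was at 61.2, 65.8 and 55.2 CPM at days 0, 4 and 9, at 3.05 and 10.1 CPM in the density libraries, at 2.01, 2.45 and 3.18 CPM in the GFP fractions, and at 12.2, 11.6, 11.3 and 17.6 CPM from DMSO to 2 µM. Tap2 followed the same order of experiments, with 99.0, 95.6 and 91.0 CPM at days 0, 4 and 9, 6.81 and 17.4 CPM in the density libraries, 2.26, 3.56 and 4.35 CPM in the GFP fractions, and 21.8, 28.1, 22.2 and 34.6 CPM in the inhibitor libraries. From the lowest to the highest library the range was 32.8-fold for Tap1 (20.1 to 57.6, with 16 counts in the lowest library) and 43.9-fold for Tap2 (27.6 to 74.4, with 18 counts). Tapasin (Tapbp), which bridges transporter and heavy chain, stood at 873, 828 and 832 CPM in feeder removal. Elsewhere it lay between 107 CPM in GFP-low and 492 CPM at 2 µM with a median of 238 CPM, a range of 8.16-fold over the 12 libraries.

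The inducible catalytic subunits differed most among themselves. Psmb8, which replaces the constitutive Psmb5, had the widest range of the 9, 79.98-fold (50.4 to 135). It was at 100.1, 114 and 98.5 CPM at days 0, 4 and 9, at 4.22 and 5.79 CPM in the density libraries, at 3.13, 1.43 and 1.80 CPM in the GFP fractions, and at 15.2, 9.82, 15.0 and 18.6 CPM in the inhibitor libraries. Psmb9, which replaces Psmb6, stood at 94.6, 93.9 and 88.9 CPM in feeder removal and otherwise between 11.2 and 37.6 CPM, and Psmb10, which replaces Psmb7, at 343, 325 and 269 CPM and otherwise between 42.5 and 173 CPM. Their constitutive partners moved far less, with ranges of 1.56-fold for Psmb5, 2.13-fold for Psmb6 and 1.32-fold for Psmb7, and only Psmb6 among these 3 had all feeder-removal libraries on top.

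Expressed as a share of each pair's TPM, the inducible subunit at the Psmb5 position showed the widest relative distance between feeder removal and the rest. Psmb8 made up 30.3%, 30.7% and 31.5% of Psmb8 plus Psmb5 at days 0, 4 and 9, and the 95% counting intervals of these shares overlapped. It made up 2.16% in the epithelial-like and 2.83% in the mesenchymal-like library, 1.17%, 0.694% and 0.852% in the GFP fractions, and 7.52%, 4.64%, 7.86% and 9.79% from DMSO to 2 µM. The expected counts of Psmb5 were fractional in 12 libraries, so its reads were shared with other genes and these shares are uncertain to that extent. Psmb10 was the only inducible subunit above its partner, at 57.5%, 56.8% and 55.8% in feeder removal. Its share was 30.7% and 32.8% in the density libraries and 36.5% to 42.5% in the inhibitor ones, and it differed between the sorted fractions, at 14.9% (13.4% to 16.4%) in GFP-low, 20.3% (19.0% to 21.7%) in GFP-mid and 27.7% (25.9% to 29.5%) in GFP-high. Psmb9 stayed below its partner everywhere, at 14.9%, 13.3% and 16.1% of the pair in feeder removal and 2.76% to 5.05% in the density and sorted libraries. With the inhibitor its share was 11.6%, 10.7% and 9.62% at 0.5, 1 and 2 µM against 6.69% (5.60% to 7.91%) with DMSO.

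**Figure D2:**
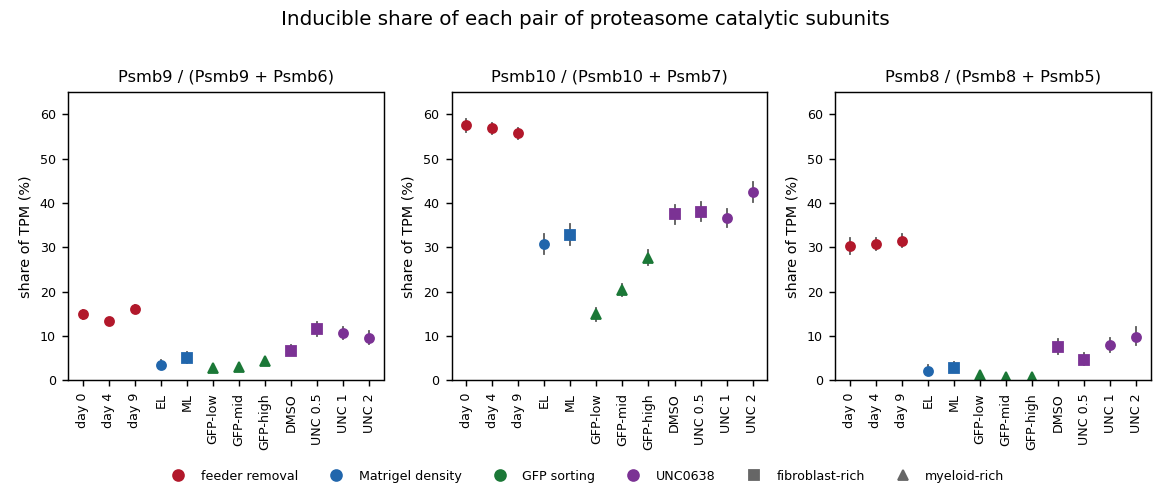
Share of the inducible subunit in the summed TPM of each inducible and constitutive pair (percent, linear axis from 0), 1 point per library with its 95% Clopper-Pearson interval from the expected counts; colours mark the experiment and shapes the fibroblast-rich and myeloid-rich libraries. The feeder-removal points are the highest in all 3 panels, at 55.8% to 57.5% for Psmb10, 30.3% to 31.5% for Psmb8 and 13.3% to 16.1% for Psmb9, where the intervals at day 4 and 0.5 µM overlap.

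Ratios between members within 1 library do not depend on the scaling of that library. Psmb9 and Tap1, which share the printed interval, kept a TPM ratio of 4.83, 4.50 and 5.03 at days 0, 4 and 9. Outside feeder removal the ratio was 5.30 (3.57 to 7.96) in the mesenchymal-like library and 6.45 (4.71 to 8.91), 10.2, 10.3 and 6.16 from DMSO to 2 µM. It was 13.01 (7.01 to 25.9) in the epithelial-like library and 14.5 to 18.6 in the GFP fractions, where Tap1 was the further of the pair below its feeder-removal level. Psmb8, the next inducible subunit along the same cluster, was close to Psmb9 in feeder removal, at ratios of 1.02, 1.17 (1.08 to 1.27) and 1.07, and below it everywhere else, from 0.584 (0.433 to 0.782) with DMSO to 0.0944 (0.0538 to 0.156) in GFP-high. H2-K1 and H2-D1 were near 1 to 1 in feeder removal (0.998 to 1.08) and in the mesenchymal-like library (1.05), while H2-K1 led by 1.99 in the epithelial-like library and 2.08 in GFP-high. B2m relative to both heavy chains together was 1.69 to 1.86 in feeder removal, 2.37 (2.18 to 2.58) in the mesenchymal-like and 0.926 (0.805 to 1.06) in the epithelial-like library. In the inhibitor experiment it was 1.09, 0.901, 0.645 and 0.702 from DMSO to 2 µM, beside fibroblast sums of 3242, 1088, 461 and 571 CPM, and in the GFP fractions 1.58, 1.36 and 1.02 from low to high, beside myeloid sums of 1977, 1751 and 240 CPM. The part of these cells in the ratios was not tested.

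**Figure D3:**
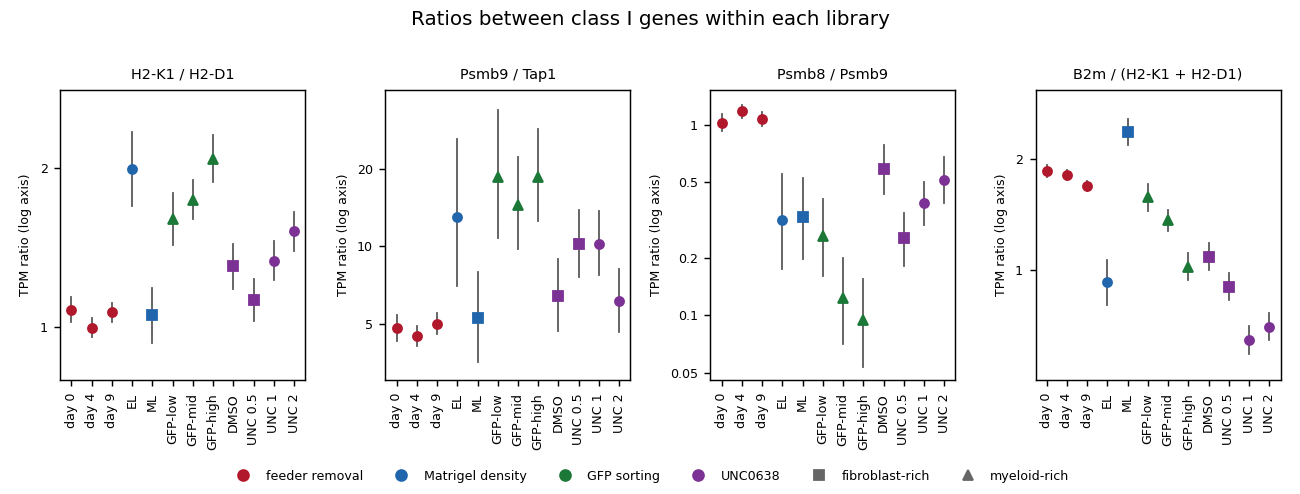
TPM ratios between members within each library (log axes, each with its own range), 1 point per library with 95% counting intervals; colours mark the experiment and shapes the fibroblast-rich and myeloid-rich libraries. Psmb8 over Psmb9 is near 1 in feeder removal and at most 0.584 elsewhere, and B2m over the heavy chains is highest in the mesenchymal-like library, at 2.37.

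Within feeder removal, the comparison asks what 4 or 9 days without feeders did to the set. None of the 9 genes passed 2-fold at day 4 or day 9, where 2.28% and 2.60% of all genes did. Ratios here and below are log2 of CPM + 1, a scale that understates the change of low genes. At day 4 they ran from -0.08 in Tapbp and Psmb10 to 0.21 in H2-D1, and at day 9 from -0.35 (-0.43 to -0.28) in Psmb10 to 0.10 in H2-D1. The medians of the 9 were 0.09 and -0.07, against 0.03 and 0.02 over all genes tested. On the deposited TPM the day 9 median turned to 0.06, with 7 of the 9 ratios above 0, against 0.13 over all genes, so the members' direction at day 9 depends on the scaling.

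In the Matrigel density experiment 4 genes were more than 2-fold higher in the mesenchymal-like than in the epithelial-like library, where 12.5% of all genes passed 2-fold in either direction and 10.7% upward. These were B2m at 2.05 (1.88 to 2.26), Tap1 at 1.46 (0.81 to 2.75), H2-D1 at 1.26 (1.05 to 1.50) and Tap2 at 1.24 (0.71 to 2.03). With a pseudocount of 5 only B2m and H2-D1 passed, since the Tap values rest on 13 and 29 counts in the epithelial-like library. H2-K1 differed by 0.35 (0.17 to 0.54), Tapbp by -0.07 (-0.20 to 0.06; 0.24 when centred on germ cell markers), and the 3 inducible subunits by 0.38, 0.38 and 0.14 with intervals that span 0. Fibroblast markers moved with these genes, with 19 of 20 past 2-fold upward and a median of 4.63, while the germ cell markers had a median of -0.31. Testis somatic markers summed to 220 CPM in the mesenchymal-like and 16.4 CPM in the epithelial-like library, with 2 of 6 past 2-fold upward. The part of these lists in the result was not tested. Of the interferon-stimulated genes 3 of 21 passed 2-fold upward, and their median of -0.06 stood beside -0.06 for all genes.

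Among the GFP fractions no member passed 2-fold, against 4.07% of all genes in GFP-mid and 9.54% in GFP-high relative to GFP-low. From GFP-low to GFP-high, Psmb10 differed by 0.77 (0.60 to 0.98), Tapbp by 0.66 (0.55 to 0.79), Tap2 by 0.72 (0.12 to 1.83) and Psmb9 by 0.62 (0.29 to 1.04). B2m went the other way by -0.47 (-0.61 to -0.33), and Psmb8, with 25 and 17 counts, gave -0.56 with an interval of -1.78 to 0.15. In GFP-mid against GFP-low, Psmb8 gave -0.77 (-2.10 to -0.20), the lowest ratio of a member among the fractions, at 1.43 against 3.13 CPM, and it passed 2-fold with a pseudocount of 0.1. In Psmb10 and Tapbp the middle fraction lay between the others, at 54.7 CPM between 42.5 and 73.2 CPM and at 135 CPM between 107 and 170 CPM. Myeloid markers fell on the same axis, with 17 of 18 past 2-fold downward in GFP-high and a median of -2.76, and fibroblast markers rose, with 10 of 20 past 2-fold upward and a median of 0.97. Of the interferon-stimulated genes, 17 of 21 were higher and 3 lower in GFP-mid, with a median of 0.44 against -0.01 over all genes. In GFP-high 16 were higher and 4 lower, with a median of 0.51 against -0.02. The part of any of these lists in these ratios was not tested.

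UNC0638 moved no member past 2-fold at any dose, while 3.71%, 6.71% and 7.01% of all genes passed at 0.5, 1 and 2 µM. At 2 µM all 9 ratios were above 0 with a median of 0.45 against -0.02 over all genes, and the counting intervals of 7 lay above 0. The highest were H2-K1 at 0.72 (0.60 to 0.85), Tap2 at 0.65 (0.30 to 1.04), Tap1 at 0.50 (0.03 to 1.04) and H2-D1 at 0.50 (0.37 to 0.65), and the lowest was B2m at 0.01, whose sign turned on the deposited TPM. At 0.5 and 1 µM the medians were 0.06 and 0.03, with B2m at -0.12 and -0.53 (-0.68 to -0.39), Psmb8 at -0.58 (-1.17 to -0.10) and -0.01, and Psmb9 at 0.56 and 0.55. With libraries centred on germ cell markers the 0.5 µM median turned to -0.09, against -0.16 over all genes. All 3 doses were set against the same DMSO library, and fibroblast markers fell in each, with 13, 20 and 17 of 20 past 2-fold downward; their part in these ratios was not tested. Interferon-stimulated genes had medians of 0.10, 0.06 and 0.32 at 0.5, 1 and 2 µM, with 16, 12 and 12 of 21 higher. Over all genes the medians were -0.01, -0.002 and -0.02. The part of the interferon-stimulated genes was not tested either.

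The DMSO and day 0 libraries, both from cells on MEF but from different experiments, differed more than 2-fold in 8 of 9 members, all lower with DMSO, where 19.4% of all genes passed 2-fold in either direction and 7.22% downward. Psmb8 was lower by -2.64 (-3.08 to -2.38) in log2, Tap1 by -2.24, Tap2 by -2.14, Psmb9 by -1.87, B2m by -1.82, Psmb10 by -1.21, H2-D1 by -1.19 and Tapbp by -1.13. H2-K1, at -0.92 (-1.04 to -0.82), was the exception. The median of the 9 was -1.82 against 0.01 over all genes, and the 3 constitutive subunits had a median of -0.30. Fibroblast markers went in the opposite direction, with 19 of 20 past 2-fold upward in DMSO, and germ cell markers had a median of 0.00.

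**Figure D4:**
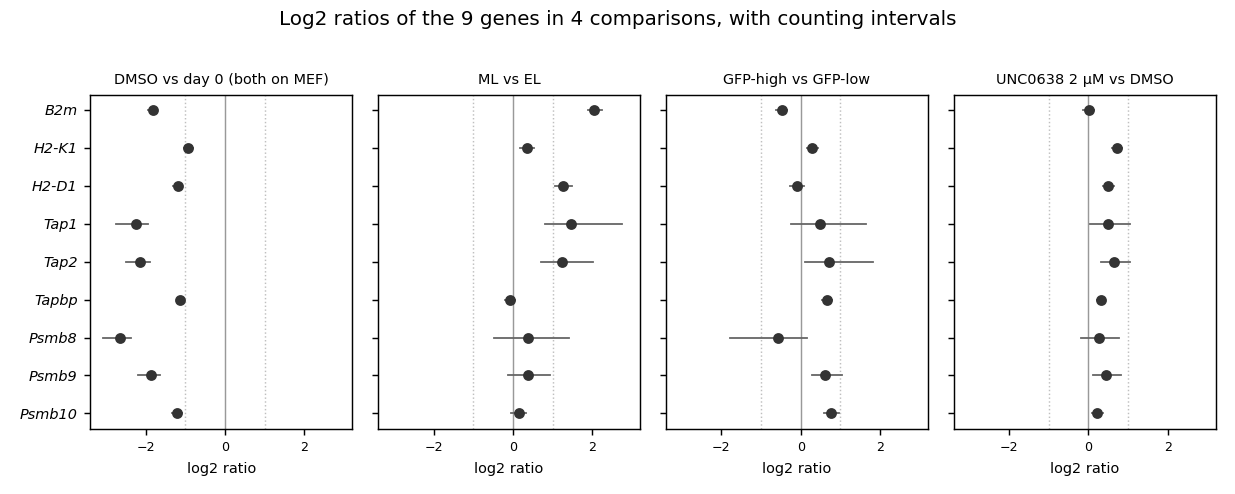
Log2 ratio of CPM + 1 for each member (rows) in 4 comparisons (panels), as points with 95% Clopper-Pearson intervals of the read split computed without the pseudocount; dotted lines mark 2-fold. With DMSO against day 0, 8 of 9 points lie past the lower line, and in the mesenchymal-like against the epithelial-like library 4 lie past the upper line; none does in the other panels.

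Other genes of the pathway were read from lists. Of the 3 constitutive subunits 1 and of 16 other proteasome and activator subunits 9 had every feeder-removal library on top, against 14.4% of all genes, among them Psme1 (317 to 358 CPM against 121 to 251 CPM) and Psme2 (502 to 615 CPM against 162 to 376 CPM), the interferon-inducible subunits of the proteasome activator PA28. Of these 16, 1 had the reverse order on CPM, the activator subunit Psme4, at 22.4 to 36.0 CPM against 36.0 to 62.8 CPM, but its ranges overlapped on TPM. Among 8 loading and trimming genes 4 were on top, including Erap1 (listed as Arts1), which trims peptides in the endoplasmic reticulum, at 436 to 512 CPM against 86.5 to 180 CPM, and Tapbpl, a tapasin relative, at 156 to 237 CPM against 41.9 to 114 CPM. Calreticulin (Calr), a chaperone of the loading complex, had the reverse order at 140 to 169 CPM against 274 to 462 CPM. Of 13 tested heavy chain genes outside the classical pair 7 were on top and none at the bottom. Of the 7, H2-Bl was all but tied, at 1.6927 CPM at day 4 (20 counts) against 1.6901 CPM in the mesenchymal-like library (7 counts). It reached a mean of 1 CPM only through feeder removal. Also among the 7, H2-T22, H2-T23 and H2-M3 were at 53.5 to 70.6, 43.3 to 74.0 and 57.4 to 68.3 CPM against 7.90 to 36.0, 13.04 to 32.4 and 12.6 to 27.0 CPM. Heavy chain genes resemble each other, and expected counts were fractional in every library for H2-T23 and in some for H2-T22, so reads were shared. Those of H2-M3 were whole throughout.

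Regulators were mixed, with 5 of 23 on top and 4 at the bottom in feeder removal, against 14.4% and 13.2% of all genes. Irf9 (listed as Isgf3g), a transcription factor of the interferon response, was at 32.8 to 41.7 CPM against 3.86 to 10.6 CPM elsewhere. Irf1, a direct activator of class I promoters, was closer, at 276 to 360 CPM against 108 to 266 CPM. At the bottom were Jak2, Nfya, Rfxap and Tyk2. Rfxap was at 0.648 to 1.63 CPM against 4.43 to 7.85 CPM, and Nfya at 1.04 to 2.54 CPM against 2.63 to 6.28 CPM. Nlrc5 (listed as AI451557) was low throughout, at 2.46 to 4.80 CPM in feeder removal and 0 to 4.12 CPM elsewhere, and the 2 ranges overlapped. Among class II genes, which present peptides to helper T cells, none of 5 tested had feeder removal on top. Cd74 and H2-Aa reached at most 5.42 and 2.29 CPM in any library, and Ctss, a protease that myeloid cells express, was at 70.5 and 74.2 CPM in GFP-low and GFP-mid and at most 5.31 CPM elsewhere.

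The tested interferon-stimulated genes, none of them a member, had the same ordering. All 21 that were tested had every feeder-removal library on top, against 14.4% of all genes. All 21 were past 2-fold lower with DMSO than at day 0, against 7.22% of all genes, with a median of -3.35. The filter shaped these counts, since some of the 21 reached a mean of 1 CPM only through feeder removal. Iigp1, for example, was at 3.98 to 5.53 CPM there and 0 to 0.916 CPM elsewhere. Mx1 and Cxcl10, matched but below the filter, lacked the ordering. They were at 0 and 0.677 CPM at day 4 and both at 1.60 CPM at 2 µM. The summed level of the 23 matched genes was 3408, 3525 and 3401 CPM at days 0, 4 and 9, and from 123 CPM in GFP-low to 594 CPM at 2 µM elsewhere. Usp18, which dampens interferon signalling, showed the distance well, at 310 to 360 CPM against 1.63 to 5.24 CPM. The list had been selected with this difference known, so it lends no independent weight.

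**Figure D5:**
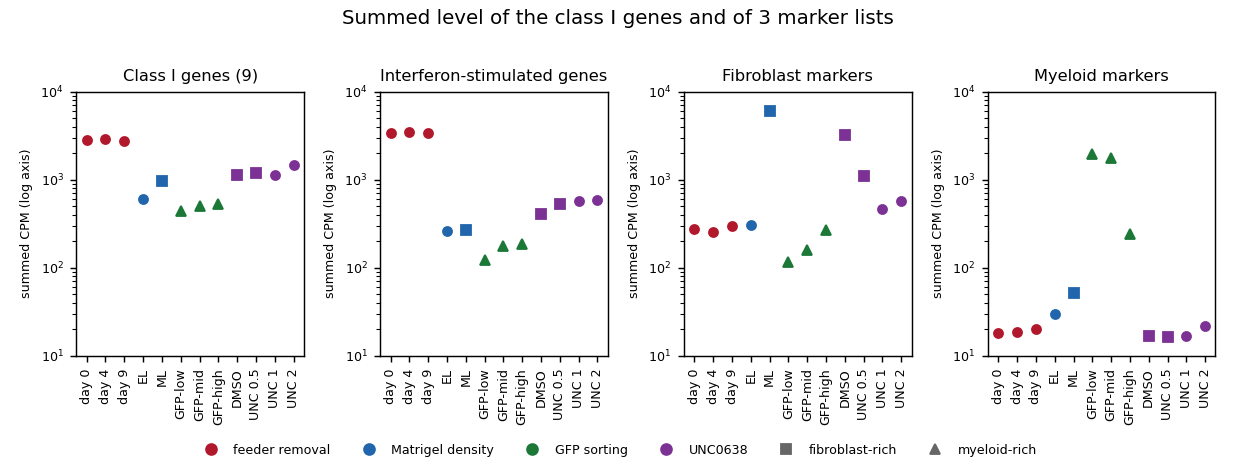
Summed CPM (log axes) of the 9 members and of the interferon-stimulated, fibroblast and myeloid lists in the 12 libraries, 1 point per library; colours mark the experiment and shapes the fibroblast-rich and myeloid-rich libraries. Members and interferon-stimulated genes are highest at days 0, 4 and 9, where the fibroblast sum is 253 to 295 CPM and the myeloid sum 18.1 to 19.9 CPM.

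Outside feeder removal the members still differed in how far they moved together. Over those 9 libraries the Pearson r of log2(CPM + 1) between pairs of members ran from 0.33 (B2m with Psmb9 and with Tapbp) to 0.98 (Tap1 with Tap2), with a median of 0.89 over 36 pairs. These values are descriptions over libraries that share experiments and scaling. The 5 genes whose profile over the 12 libraries was most like the mean of the members, among 12441 candidates, were Gbp6 (r = 0.98), Gbp3 (0.98), Btg2 (0.98), Psmd7 (0.97) and D12Ertd647e (0.97). Over the 9 libraries outside feeder removal alone their r was 0.95, 0.94, 0.92, 0.94 and 0.93, which ranked them 19, 38, 83, 48 and 58, so none was among the 5 most alike there. Gbp6 and Gbp3 belong to the interferon-inducible guanylate-binding proteins, and Gbp3 is on the interferon-stimulated list. Gbp6 was at 87.4 to 137 CPM in feeder removal and 0.955 to 25.2 CPM elsewhere. Psmd7, a subunit of the proteasome's regulatory particle, had a narrower range, at 463 to 494 CPM against 219 to 370 CPM.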

How the data were processed

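RNA-seq tables of 12 libraries were used. The 4 ATAC-seq libraries were not analysed here. Library preparation followed Smart-seq2 in a modified form suited to low RNA input, per the labels' protocols. The submitters' processing notes name Trim Galore, RSEM and mm10, without versions, and the aligner and annotation release are not given in the sources used here. The authors deposited expected counts per gene, the estimated counts of RSEM before any normalization, per the file headers. The TPM were computed by the authors from these counts, corrected for length and summing to the same total in each library, per the file headers. The effective length in the deposited tables, per the file headers another value of RSEM, was read but not changed, and FPKM was not used.

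Expected counts were rounded and scaled here to CPM with TMM factors (edgeR 4.0.16, R 4.3.3). A mean of 1 CPM or more over the libraries was required, and a change means at least 2-fold in CPM + 1 between 2 libraries. Clopper-Pearson intervals at 95% describe how reads divided between 2 libraries or 2 genes. Reads copied by PCR carry no molecular identifiers, so these intervals and the floor of 3 counts cover counting error only. No test was possible with n = 1.

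The members and lists were chosen with earlier results of these data known. Named genes were the 9 members, genes of the pathway and interferon lists, and the 5 genes with at least 50 counts in their highest library whose profile was most like the members' mean. H2-Ke6, a steroid dehydrogenase listed among heavy chains by mistake, was dropped. The values of 1 regulator are not reported here. Rows were matched by symbol or RefSeq transcript, and 6 heavy chain names and Isg15 had no match. RefSeq GRCm38.p6, the RefSeq release of the mm10 assembly, gave positions and promoter windows; Tap2 and Psmb7 had no window. Sequences were aligned locally with Biopython 1.88. The ratios, 2-fold calls and intervals were checked on simulated counts. Alternatives were DESeq2 1.42.0 size factors, total counts, centring on germ cell markers, the deposited TPM, other pseudocounts and filters, and other sets of libraries. Figures were drawn with matplotlib 3.10.9, and tables computed with scipy 1.17.1, pandas 2.3.3 and numpy 2.4.6 under Python 3.11.15.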

Additional observations from a re-analysis of the deposited data

How the results depend on the processing

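With 1 library per group, no alternative can stand in for replicates, and paired or leave-one-out fits do not apply. No paired analysis was possible because each group had 1 library and no result comes from a test. Of the counts of members past 2-fold in the 9 comparisons, 2 moved: with a pseudocount of 0.1 in place of 1, 1 member (Psmb8, lower) passed in GFP-mid against GFP-low in place of 0, and with a pseudocount of 5, 2 passed in the mesenchymal-like against the epithelial-like library in place of 4. The other 7 counts stayed within 1.5 times under every setting run. The median Psmb10 share over the libraries was 36.3% from CPM against 37.0% from TPM. All 9 members kept every feeder-removal library on top under TPM, DESeq2 size factors and total counts. With fewer other libraries to exceed, more of all genes had this ordering, 20.4% without the 3 sorted libraries and 17.4% without the 3 fibroblast-rich ones in place of 14.4%; these sets were chosen after seeing the data. Of 81 single ratios none reversed among those past 2-fold; 23 left their counting interval on centring by germ cell markers and 8 on the deposited TPM, with sign changes in 5 and 9 ratios near 0 and in 3 on total counts. The median of all genes moved to 0.25 in the density comparison, 0.15 and 0.20 in GFP-mid and GFP-high, -0.16 at 0.5 µM and 0.17 at 2 µM on germ cell centring, and to 0.13 at day 9 and 0.11 in GFP-high on TPM. Germ cell centring also moved the share of higher genes among all genes called from 85.7% to 96.1% in the density comparison, from 83.2% to 94.1% in GFP-mid, from 72.8% to 86.8% in GFP-high, from 42.6% to 23.97% at 0.5 µM and from 48.8% to 71.3% at 2 µM. The share of all genes past 2-fold, 2.28% to 19.4% over the 9 comparisons, was 7.17% to 25.3% with a pseudocount of 0.1, 0.119% to 9.08% with 5, 1.70% to 11.3% with no filter and 0.302% to 15.7% with a filter at 10 CPM. Depth limits Tap1, Tap2 and Psmb8 most, whose lowest libraries by CPM held 16 to 18 counts.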
